A study of Mus musculus with 15 samples.

Results

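The data compared here are from E14 mouse embryonic stem cells in which 1 of 2 proteins of the same ribosomal subunit was depleted by siRNA: Rpl18 (siRpl18, 3 libraries) or Rpl23 (siRpl23, 3 libraries). These 6 of the 15 libraries of the series were taken by their labels, and a gene was described when 2 or more of the 6 had it at 1 FPKM or above, which left 11949 of 24819 genes. The 3 libraries of cells given a non-targeting siRNA (siNT) serve as the baseline. All 3 groups were E14 cells kept on gelatin in serum with leukemia inhibitory factor (LIF) and transfected with DharmaFECT, so transfection itself is common to them. The labels name 1 siRNA target per group and give no siRNA sequence. Sample titles give 48 h of knockdown, whereas the treatment protocol gives harvest after 3 days; which applies was not settled. The values are a read-out of polyadenylated RNA.

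Rpl18 and Rpl23 are both structural proteins of the large (60S) ribosomal subunit. When a 60S protein is missing, subunit assembly stalls, and free ribosomal proteins can bind the ubiquitin ligase Mdm2, which normally keeps the transcription factor p53 low. In human cells Rpl23 itself, like Rpl5 and Rpl11, has been found to bind Mdm2. A comparison between 2 knockdowns of the same subunit asks which genes differ with the protein targeted, apart from the response that follows loss of either. Effects of an siRNA on RNAs other than its target cannot be told apart here from loss of the protein.

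Replicates 1 and 2 of each group were in 1 table and were tested there (n = 2 per group). The fit also held that table's libraries of cells depleted of Rpl11 (siRpl11) or Rpl14 (siRpl14). These shared in each gene's estimate of spread and so in every p-value. The third libraries were in another, separately normalized table and, except in alternative fits of both tables, were compared only with each other. Differences are siRpl18 minus siRpl23 in log2(FPKM + 1) ± SE, a gene was called at a limma adjusted p under 0.05, and differences in the third libraries are those of the second table. FPKM carries no read total and absolute depth is unknown. Judged by the smallest steps between low values, the siRpl18 libraries had 0.889 and 0.946 of the depth of the first siNT library and the siRpl23 libraries 0.973 and 0.747. In the second table these relative depths were 1.09 in siRpl18 and 1.06 in siRpl23. All 10 embryonic stem cell markers were at 48.6 FPKM or more in every knockdown library. Of 16 fibroblast or feeder cell markers, 12 in siRpl18, 11 in siRpl23 and 10 in siNT were under 1 FPKM in every library of the group. Summed, the 16 gave 42.7 to 48.1 FPKM in siRpl18, 43.6 to 46.3 FPKM in siRpl23 and 49.8 to 60.7 FPKM in siNT.

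Each siRNA lowered its own target. Rpl18 had 614, 670.4 and 905 FPKM in the siRpl18 libraries, against 1909, 2091 and 3107 FPKM in the siRpl23 libraries and 1866, 2067 and 2898 FPKM in siNT. Its mean in the first table was 32.6% of siNT in siRpl18 and 102% in siRpl23, and in the third libraries these were 31.2% and 107%. Rpl23 had 1266, 1417 and 1188 FPKM in siRpl18, against 412, 436 and 320.1 FPKM in siRpl23 and 1126, 1211 and 1028 FPKM in siNT. It stood at 36.3% of siNT in siRpl23 (31.1% in the third library) and at 115% in siRpl18 (116%), where it was called higher than in siNT (0.20, adjusted p = 0.0339). Relative to siNT, the targets were lowered to a like degree. Between the knockdowns Rpl18 differed by -1.64 ± 0.08 (adjusted p = 1.02e-05) and Rpl23 by 1.66 ± 0.07 (adjusted p = 6.28e-06). Both genes have many processed pseudogene copies in the mouse genome, and how reads shared with such copies were assigned is not given in the sources used here.

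Few genes were called between the knockdowns, and most called differences were small. Of 11949 genes, 428 (3.58%) were called between siRpl18 and siRpl23, 127 (1.06%) higher and 301 (2.52%) lower in siRpl18. Both targets are among them. Without the siNT, siRpl11 and siRpl14 libraries in the fit, 65 were called. An unadjusted limma p under 0.05 went to 2489 genes (20.8%). With 2 libraries per group, a gene that was not called may still differ. Against siNT, by comparison, 7960 genes (66.6%) were called in siRpl18 and 7742 (64.8%) in siRpl23, contrasts that share the siNT libraries. The median size of a called difference was 0.33, and 23 genes were at least 1.5-fold higher and 20 at least 1.5-fold lower. Folds here are of FPKM + 1, so that Pisd, at 49.3% of siRpl23 in FPKM, was short of 2-fold. Only 4 called genes passed 2-fold on this scale: Rpl23, Hist1h4h and Hist1h2ak upward and Rpl18 downward. Hist1h2ak, named here because of that count, is a histone H2A gene and was low, at 4.13, 1.97 and 2.39 FPKM in siRpl18 against 0.963, 0.872 and 0 FPKM in siRpl23. It is 1 of 12 called genes, 6 higher and 6 lower, that were under 1 FPKM in every library of 1 knockdown and so passed the filter only through the group in which they were high. Against siNT, 904 genes in siRpl18 and 836 in siRpl23 were called and changed by 2-fold or more.

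The spread over genes gives the same scale. A single siRpl18 library differed from a single siRpl23 library of the first table with an SD across genes of 0.225 to 0.258 log2 units, and the third libraries differed with 0.230. The 2 siRpl18 replicates differed from each other with an SD of 0.217, the 2 siRpl23 replicates with 0.240 and the 2 siNT replicates with 0.169. A knockdown library minus a siNT library gave 0.574 to 0.621. Between the knockdowns the spread was thus close to that between replicates of 1 knockdown.

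The third libraries did not enter the fit that made the 428 calls. They had the same sign as the first table for 397 of the 428 called genes (92.8%) and for 64.4% of all genes tested. Called genes that were higher had a median difference of 0.34 in the first table and 0.26 in the third libraries. For called genes that were lower these medians were -0.33 and -0.28. The excess of lower over higher calls depended on scaling. With median-ratio scaling, 247 genes were higher and 208 lower, and with quantile normalization 224 were higher and 264 lower, whereas the median over all genes was -0.03 as deposited. Calls also depended on single libraries: 91 genes were called without the first siRpl18 replicate, 90 without the second, 53 without the first siRpl23 replicate and 64 without the second. Called in the fit as described and in every alternative that tested them were 25 genes, 4 higher and 21 lower. The targets are counted here, Rpl23 among the 4 and Rpl18 among the 21. All 25 had the same sign in the third libraries. Alternatives that fitted both tables included those libraries, so this match is not independent of how the 25 were selected.

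**Figure D1:**
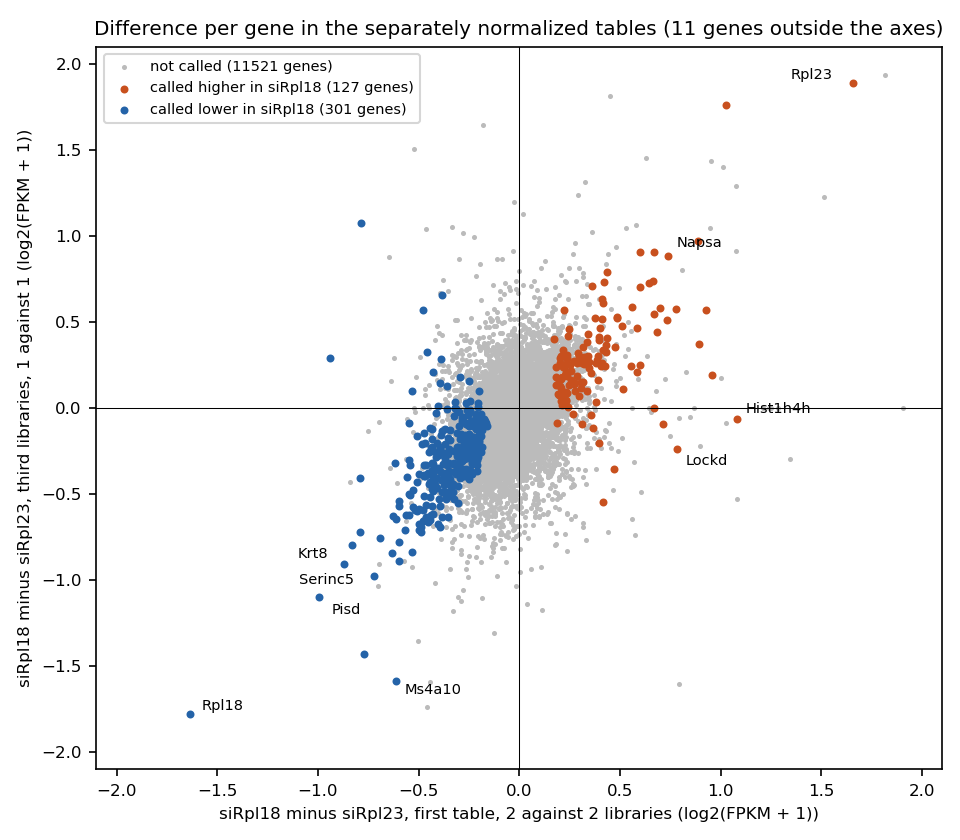
Difference siRpl18 minus siRpl23 per gene in log2(FPKM + 1), with the first table (mean of 2 libraries minus mean of 2) on the x axis and the third libraries (1 minus 1) on the y axis. Orange and blue points are the 127 genes called higher and the 301 called lower in siRpl18, grey points were not called, and 397 of the 428 called genes lie in the quadrants where the signs match.

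Several epithelial genes were lower in siRpl18 than in siRpl23. The list described here held keratins, claudins, annexins, S100 proteins and other genes of the epithelial and mesenchymal cell surface and skeleton. Like the other lists, it was chosen with earlier results of these data known, so its share of calls is a description and not a test. Of 27 members chosen 24 were tested, of which 8 were called lower and 3 higher, against 2.52% lower and 1.06% higher over all genes tested. The median difference was -0.18 (-0.24 in the third libraries), against -0.03 over all genes tested. The promoters of 4 members are printed because these had the largest differences of the list. They are the 250 bases before the start of Krt8 (chr15:102004343-102004592, minus strand), Krt18 (chr15:102027966-102028215, plus strand), Cldn4 (chr5:134946935-134947184, minus strand) and Cldn6 (chr17:23679115-23679364, plus strand), RefSeq, build GRCm38.p6, read 5′ to 3′ on the gene's strand. Capitals mark the E-box CACCTG or its reverse complement CAGGTG, letters that repressors of the Snail and ZEB families bind.
Krt8: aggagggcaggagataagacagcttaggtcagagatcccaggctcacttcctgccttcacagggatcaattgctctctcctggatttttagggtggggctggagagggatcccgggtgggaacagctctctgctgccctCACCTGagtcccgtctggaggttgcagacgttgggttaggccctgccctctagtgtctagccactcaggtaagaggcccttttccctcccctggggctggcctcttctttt
Krt18: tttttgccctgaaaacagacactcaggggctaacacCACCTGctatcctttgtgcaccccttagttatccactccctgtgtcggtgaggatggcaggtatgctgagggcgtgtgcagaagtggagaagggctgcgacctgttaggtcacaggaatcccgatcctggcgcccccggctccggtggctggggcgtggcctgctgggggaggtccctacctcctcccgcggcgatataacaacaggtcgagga
Cldn4: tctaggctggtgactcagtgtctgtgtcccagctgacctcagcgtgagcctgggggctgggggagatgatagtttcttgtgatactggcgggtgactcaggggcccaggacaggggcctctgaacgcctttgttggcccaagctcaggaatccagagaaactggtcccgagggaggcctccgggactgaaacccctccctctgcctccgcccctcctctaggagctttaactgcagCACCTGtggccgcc
Cldn6: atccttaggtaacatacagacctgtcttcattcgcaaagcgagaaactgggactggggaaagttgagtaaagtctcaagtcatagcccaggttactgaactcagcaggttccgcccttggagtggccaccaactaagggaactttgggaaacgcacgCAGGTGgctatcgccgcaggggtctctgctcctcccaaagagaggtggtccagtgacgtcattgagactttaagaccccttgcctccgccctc

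Each of the 4 windows held these letters once, with the first base at -111 in Krt8, -214 in Krt18, -14 in Cldn4 and -93 in Cldn6, counted from the start. The motif was chosen after the sequences had been seen and both strands were searched. It was in 57 of 239 windows (23.8%) of genes called lower, in 9 of 96 (9.38%) of genes called higher and in 18.6% of the 9393 windows of genes tested. Within the list it was in 4 of 6 windows of members called lower, which were the 4 printed. It was also in 1 of 2 windows of those called higher (Epcam) and 3 of 8 of those not called. The 4 printed windows, seen before the motif was chosen, are also counted in the 57. A match is a description of the letters, not a bound site.

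Krt8 and Krt18 encode the keratin pair of simple epithelia. Krt8 had 10.1, 11.3 and 14.6 FPKM in siRpl18, against 20.9, 19.8 and 28.3 FPKM in siRpl23 and 4.40, 5.46 and 5.603 FPKM in siNT. The groups did not overlap in the first table and kept their order in the second, which has 1 library per group. Both knockdowns were above siNT. The siRpl18 mean was 52.5% of the siRpl23 mean (51.6% in the third libraries), a difference of -0.87 ± 0.11 (adjusted p = 0.00534). Krt18 followed with 7.90, 9.27 and 9.59 FPKM in siRpl18, against 16.0, 15.1 and 16.5 FPKM in siRpl23 and 4.99, 5.15 and 4.83 FPKM in siNT. Its difference was -0.79 ± 0.09 (adjusted p = 0.00362; -0.72 in the third libraries). Without the first siRpl23 replicate Krt8 was not called, with leave-one-out differences of -0.94 to -0.80, whereas Krt18 was called throughout. Krt7 and Krt19 were not called, at -0.14 and -0.07.

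Cldn4 and Cldn6 encode claudins, the sealing proteins of tight junctions. Cldn4 had 36.5, 37.0 and 59.7 FPKM in siRpl18, against 68.4, 64.1 and 104 FPKM in siRpl23 and 54.5, 48.4 and 63.8 FPKM in siNT. Its siRpl18 libraries were below siNT and its siRpl23 libraries above it in each table, by -0.47 (adjusted p = 6.95e-05) and 0.36 (adjusted p = 0.000462) in the first. The difference between the knockdowns was -0.83 ± 0.06 (adjusted p = 0.000312; -0.80 in the third libraries). Cldn6, in contrast, was above siNT in both, with 27.6, 30.8 and 26.8 FPKM in siRpl18, against 42.4, 44.6 and 41.7 FPKM in siRpl23 and 10.8, 11.8 and 8.03 FPKM in siNT. It differed by -0.56 ± 0.07 between the knockdowns (adjusted p = 0.00519; -0.62 in the third libraries). Cldn3 and Cldn7 were not called, at 0.03 and -0.09.

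The other members called lower were the annexin Anxa3 (-0.52), the calcium-binding proteins S100a6 (-0.43) and S100a11 (-0.28), and Cdh1 (-0.22), which encodes E-cadherin. S100a6 had 62.1, 58.9 and 60.1 FPKM in siRpl18, against 82.4, 81.1 and 84.4 FPKM in siRpl23, and was called in every alternative. Anxa3, S100a11 and Cdh1 lost the call without any 1 of the 4 libraries, and Anxa3 and S100a11 also after median-ratio scaling. Called higher were Epcam (0.32), an epithelial adhesion molecule, Vim (0.33), the intermediate filament protein of mesenchymal cells, and Perp (0.34), a desmosomal membrane protein and p53 target. Epcam had 34.9, 34.9 and 33.9 FPKM in siRpl18, against 26.9, 28.6 and 27.4 FPKM in siRpl23 and 38.1, 37.6 and 38.0 FPKM in siNT. Epithelial members were therefore found on both sides. Epcam lost the call without any 1 library, Vim without either siRpl23 replicate (0.27 to 0.40 over the 4 fits) and Perp without the second siRpl18 or either siRpl23 replicate (0.24 to 0.44).

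Dsp, which encodes the desmosome protein desmoplakin and is on no list, had 4.001, 3.69 and 3.61 FPKM in siRpl18, against 6.90, 6.09 and 6.12 FPKM in siRpl23 and 3.19, 2.39 and 2.25 FPKM in siNT. The difference was -0.63 ± 0.10 (adjusted p = 0.0147; -0.63 in the third libraries), and the call was lost without any 1 library.

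Krt8 and Krt18 are also on the list of trophectoderm genes, the outer layer of the blastocyst. This list, too, was chosen with earlier results known. Of 20 members chosen 16 were tested, of which 3 were called lower and 0 higher; limma gave an unadjusted p under 0.05 to 9 members, all lower. Over all genes tested, 2.52% were called lower, and an unadjusted p under 0.05 went to 14.2% as lower and 6.62% as higher. The list's median was -0.22 (-0.20 in the third libraries), and 15 of 16 members were below 0, against 7242 of all 11949 genes tested. The third called member was Hand1, a transcription factor of trophoblast and mesoderm, with 2.79, 2.61 and 4.04 FPKM in siRpl18, against 4.71, 4.27 and 7.24 FPKM in siRpl23 and 0.377, 0.285 and 0.500 FPKM in siNT. Its difference was -0.57 ± 0.09 (adjusted p = 0.0150), and the call was lost without any 1 library. The lineage regulators Cdx2 (-0.31, adjusted p = 0.186) and Gata3 (0.15, adjusted p = 0.428) were not called. Cdx2 stayed near the limit of 1 FPKM, with 0.823, 0.879 and 0.966 FPKM in siRpl18 against 1.5, 1.09 and 1.10 FPKM in siRpl23. It passed the filter only through siRpl23, where it was higher, and without it the list's median was -0.21, with 14 of 15 members below 0. In bulk RNA, more cells of a type and more RNA per cell cannot be told apart.

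**Figure D2:**
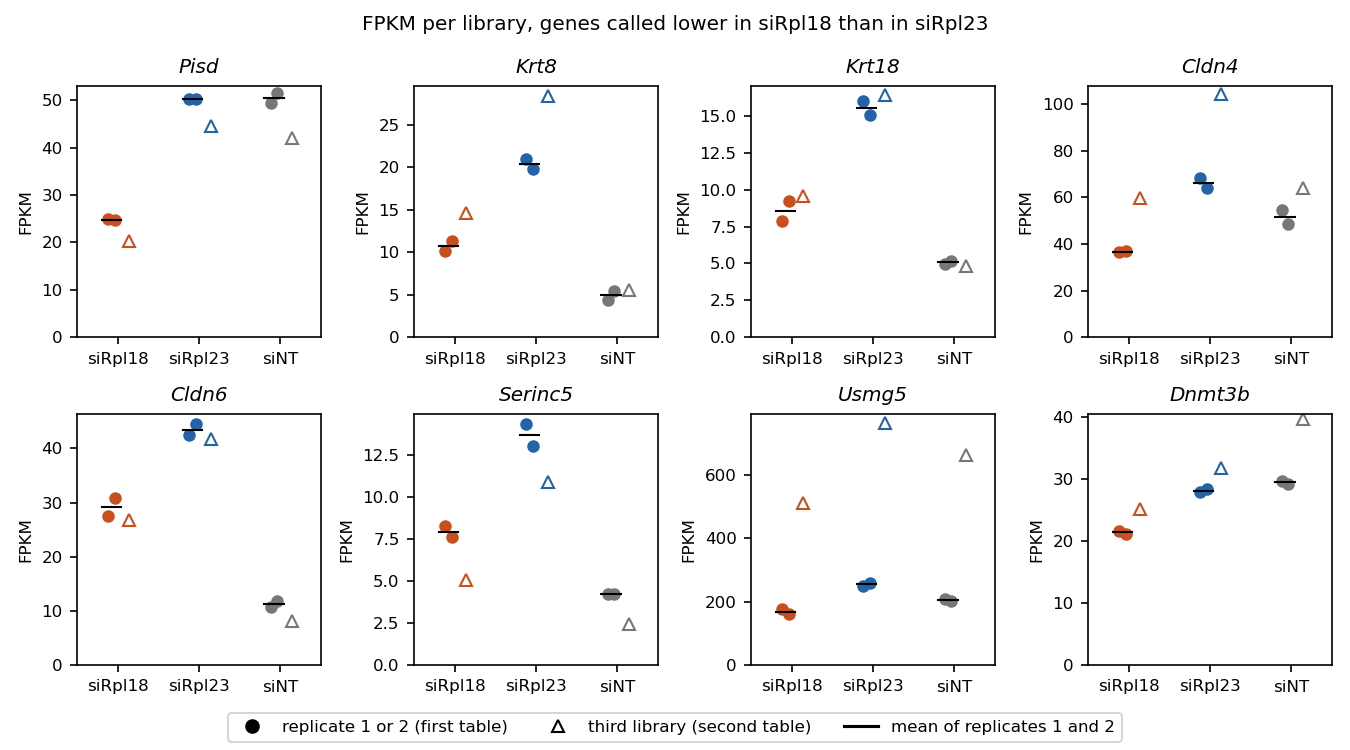
FPKM per library of 8 genes called lower in siRpl18 than in siRpl23, with filled circles for replicates 1 and 2 of the first table, open triangles for the third library and a bar at the mean of the filled circles. Pisd and Dnmt3b in siRpl23 lie near siNT, whereas Krt8, Krt18 and Cldn6 are above siNT in both knockdowns and lower in siRpl18.

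The smallest adjusted p of all genes was that of Pisd, which encodes the mitochondrial enzyme that makes phosphatidylethanolamine from phosphatidylserine. Pisd had 24.8, 24.8 and 20.3 FPKM in siRpl18, against 50.3, 50.4 and 44.6 FPKM in siRpl23 and 49.4, 51.4 and 42.0 FPKM in siNT. Every siRpl18 library was near 50% of its siRpl23 counterpart (49.3% for the means of the first table and 45.5% in the third), and siRpl23 was level with siNT. The difference between the knockdowns was -0.99 ± 0.04 (adjusted p = 5.26e-06; -1.10 in the third libraries), and against siNT it was -0.99 in siRpl18 (adjusted p = 3.14e-08) and -0.00153 in siRpl23 (adjusted p = 0.976). The annotated copy Pisd-ps3 was also called lower (-0.79 ± 0.18, adjusted p = 0.0446; -0.41 in the third libraries), but its siRpl18 values of 21.0, 35.6 and 23.9 FPKM were uneven and its difference ran from -1.16 to -0.42 as single libraries were left out, with the call lost without either siRpl23 replicate. Reads that Pisd shares with such copies make both values uncertain.

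Other mitochondrial proteins were among the 25 genes called under every setting. Echs1, a hydratase of fatty acid and valine breakdown, had 38.1, 38.6 and 46.4 FPKM in siRpl18, against 57.4, 59.7 and 68.0 FPKM in siRpl23 and 62.4, 61.5 and 67.5 FPKM in siNT (-0.60 ± 0.05, adjusted p = 0.000455; -0.54 in the third libraries). As with Pisd, siRpl23 was not called against siNT (-0.08, adjusted p = 0.146). Usmg5, a small protein of the ATP synthase, had 175, 162 and 513 FPKM in siRpl18, against 250.4, 260.1 and 763 FPKM in siRpl23 and 209, 201 and 663 FPKM in siNT. It was below siNT in siRpl18 and above it in siRpl23, and the knockdowns differed by -0.60 ± 0.05 (adjusted p = 0.000754; -0.57 in the third libraries). Of 51 oxidative phosphorylation genes 0 were called by limma, 9 had an unadjusted p under 0.05, against 3.58% called and 20.8% with such a p over all genes tested, and the median was -0.01.

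Dnmt3b, a de novo DNA methyltransferase, had 21.7, 21.2 and 25.2 FPKM in siRpl18, against 27.9, 28.4 and 31.8 FPKM in siRpl23 and 29.8, 29.3 and 39.7 FPKM in siNT. The knockdowns differed by -0.38 ± 0.04 (adjusted p = 0.00362; -0.32 in the third libraries) and siRpl23 was not called against siNT (-0.07, adjusted p = 0.189). Serinc5, a multipass membrane protein, had 8.23, 7.59 and 5.04 FPKM in siRpl18, against 14.3, 13.0 and 10.9 FPKM in siRpl23 and 4.20, 4.24 and 2.43 FPKM in siNT (-0.72 ± 0.07, adjusted p = 0.00152). Arhgdib had 5.11, 5.36 and 8.08 FPKM in siRpl18, against 8.91, 9.20 and 14.3 FPKM in siRpl23 and 5.34, 6.39 and 7.77 FPKM in siNT (-0.69 ± 0.08, adjusted p = 0.00519). Arhgdib in siRpl18 was thus at the siNT level, and siRpl23 was above it.

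Klf10, a zinc finger factor induced by TGF-beta, showed the same arrangement in the first table, whereas in the third libraries siNT lay between the knockdowns. It had 39.0, 40.5 and 24.0 FPKM in siRpl18, against 57.1, 56.9 and 36.7 FPKM in siRpl23 and 38.6, 40.2 and 28.6 FPKM in siNT (-0.51 ± 0.04, adjusted p = 0.000455). Arfgap1, a GTPase activator of the Golgi, showed the Arhgdib arrangement in both tables. Its difference was -0.53 ± 0.06 (adjusted p = 0.00303), with no call against siNT in siRpl18 (-0.06, adjusted p = 0.367). The remaining genes called lower under every setting had differences of -0.45 to -0.35. They were Nudcd3, Traf7, Ell2, Twsg1, Ldah, Nedd4, Srp72 and Rbm7. Among them, Nedd4 is a ubiquitin ligase, Srp72 a subunit of the signal recognition particle and Twsg1 an extracellular modulator of BMP signals. Nedd4 was the most abundant, at 311, 319 and 311 FPKM in siRpl18 against 406, 408 and 411 FPKM in siRpl23.

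Bin3, a membrane-shaping BAR domain protein (-0.61), and Ms4a10, a membrane protein (-0.61), complete the largest differences downward. Ms4a10 was at 4.83, 5.92 and 3.95 FPKM in siRpl18, against 8.49, 8.95 and 13.9 FPKM in siRpl23, and was nearly silent in siNT, at 0.290, 0.0846 and 0 FPKM. Both lost the call without the first siRpl18 or either siRpl23 replicate, with ranges of -0.77 to -0.46 for Bin3 and -0.74 to -0.49 for Ms4a10.

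Among genes higher in siRpl18, stress and developmental regulators stood beside genes of no common list. Napsa, an aspartic protease, had the largest difference that every setting called apart from Rpl23, with 17.5, 18.3 and 29.5 FPKM in siRpl18, against 10.02, 10.6 and 15.5 FPKM in siRpl23 and 11.2, 10.1 and 27.9 FPKM in siNT (0.74 ± 0.07, adjusted p = 0.00152; 0.89 in the third libraries). Its place against siNT differed between the tables, since siNT was level with siRpl23 in the first and near siRpl18 in the second. Gadd45a, a p53-inducible gene of the stress response, had 64.7, 66.4 and 59.7 FPKM in siRpl18, against 49.0, 44.0 and 41.0 FPKM in siRpl23 and 37.2, 36.5 and 36.3 FPKM in siNT. The groups kept the order siRpl18, siRpl23, siNT in both tables, and the difference between the knockdowns was 0.49 ± 0.06 (adjusted p = 0.00427; 0.53 in the third libraries). The unnamed transcript 4930548H24Rik, outside the naming rule and given because it was the only other gene called higher under every setting, differed by 0.60.

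Developmental transcription factors followed. Nkx2-9, a homeobox factor of the ventral neural tube, was nearly off in siNT and strongly raised in both knockdowns, with 37.3, 39.98 and 52.3 FPKM in siRpl18, against 23.1, 24.1 and 38.2 FPKM in siRpl23 and 1.63, 0.837 and 1.91 FPKM in siNT. It differed by 0.69 ± 0.14 (adjusted p = 0.0270; 0.44 in the third libraries). Otx2, a factor of the formative and primed epiblast and of anterior neural tissue, had 47.3, 48.4 and 41.9 FPKM in siRpl18, against 36.1, 35.3 and 28.9 FPKM in siRpl23 and 9.03, 8.34 and 13.7 FPKM in siNT (0.41 ± 0.05, adjusted p = 0.00362; 0.52 in the third libraries). Foxn4, a forkhead factor of neural progenitors, had 6.77, 6.80 and 8.08 FPKM in siRpl18, against 4.26, 4.13 and 5.58 FPKM in siRpl23 (0.58 ± 0.08, adjusted p = 0.00779). Nkx2-9 and Foxn4 lost the call without any 1 library, and Otx2 lost it in the fit of all 15 libraries, as did Dglucy and Lockd.

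Atf5, a stress-regulated bZIP factor, had 26.8, 29.6 and 38.3 FPKM in siRpl18, against 20.4, 18.6 and 27.2 FPKM in siRpl23 and 19.2, 17.5 and 17.5 FPKM in siNT (0.51 ± 0.07, adjusted p = 0.00847). Ptch1, the Hedgehog receptor, differed by 0.49 ± 0.08 (adjusted p = 0.0120), and Dglucy, a D-glutamate cyclase, by 0.64 ± 0.06 (adjusted p = 0.00134). Sbsn, the secreted epidermal protein suprabasin, differed by 0.47 ± 0.10 (adjusted p = 0.0396). Atf5 lost the call without the second replicate of either knockdown (0.44 to 0.58), Ptch1 without the first siRpl18 or either siRpl23 replicate (0.43 to 0.54) and Sbsn without any 1 library (0.34 to 0.61).

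Some of the largest differences did not recur. Lockd, a long noncoding RNA downstream of Cdkn1b, had 8.26 and 8.30 FPKM in siRpl18 against 3.93 and 4.88 FPKM in siRpl23 in the first table, but 8.53 FPKM in siRpl18 against 10.2 FPKM in siRpl23 in the third libraries (0.79 ± 0.09, adjusted p = 0.00362, against -0.24). Hist1h4h, a histone H4 gene, had 6.65 and 6.16 FPKM in siRpl18 against 1.73 and 3.46 FPKM in siRpl23, but 2.54 FPKM in siRpl18 against 2.70 FPKM in siRpl23 in the third libraries (1.08 ± 0.22, adjusted p = 0.0311, against -0.07). Its difference ranged from 0.73 to 1.44 as single libraries were left out, and the call was lost without either siRpl18 or the first siRpl23 replicate. Histone genes share much of their sequence and most of their RNA lacks a poly(A) tail, so both histone H4 and H2A values are uncertain in polyadenylated RNA. The linker histone gene Hist1h1c had 44.4, 43.9 and 46.7 FPKM in siRpl18, against 28.2, 29.3 and 39.0 FPKM in siRpl23 (0.60 ± 0.09, adjusted p = 0.0103; 0.25 in the third libraries), and lost the call without any 1 library.

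**Figure D3:**
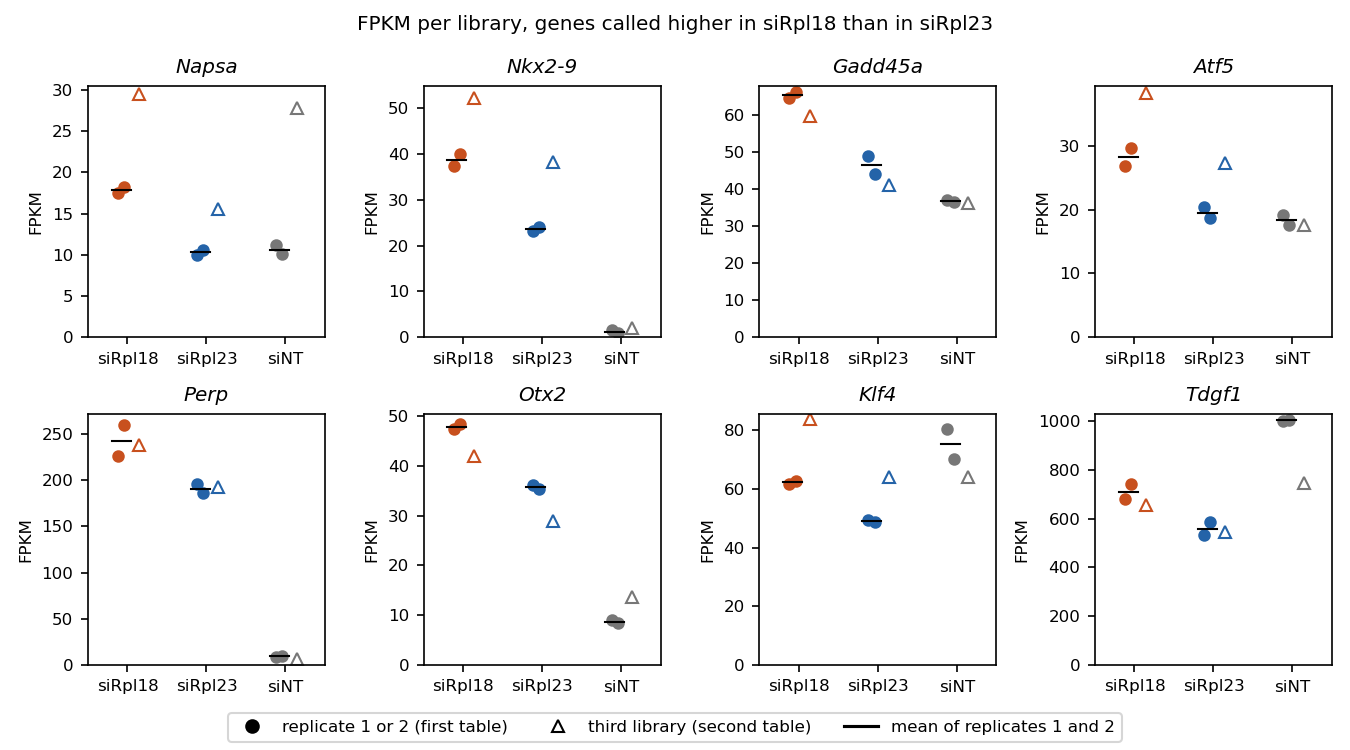
FPKM per library of 8 genes called higher in siRpl18 than in siRpl23, with filled circles for replicates 1 and 2 of the first table, open triangles for the third library and a bar at the mean of the filled circles. Nkx2-9, Perp and Otx2 were above siNT in both knockdowns, Tdgf1 was below it in both, and siNT of Napsa differed between the tables.

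Mdm2 and Cdkn1a, p53 targets, were not called between the knockdowns, whereas Trp53 was. Mdm2, which limits p53, had 375, 370.1 and 337 FPKM in siRpl18, against 362, 338 and 335 FPKM in siRpl23 and 42.0, 41.2 and 36.3 FPKM in siNT. The difference was 0.09 ± 0.04 (adjusted p = 0.277; 0.01 in the third libraries). Cdkn1a, the gene of the p21 cell cycle inhibitor, had 126, 132 and 146 FPKM in siRpl18, against 121, 109 and 136 FPKM in siRpl23 and 52.5, 48.3 and 42.7 FPKM in siNT (0.17 ± 0.06, adjusted p = 0.161; 0.10 in the third libraries). Trp53 itself was called higher in siRpl18 by 0.18 ± 0.04 (adjusted p = 0.0436; 0.13 in the third libraries), with 359, 359 and 412 FPKM in siRpl18, against 324, 309 and 375 FPKM in siRpl23 and 189, 182 and 223 FPKM in siNT.

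Of 55 p53 target genes tested, 6 were called higher and 1 lower, against 1.06% and 2.52% of all genes. Of the 55, 40 were above 0 and 15 below, against 4704 above and 7242 below of all 11949 genes tested. The list's median was 0.07, with -0.01 in the third libraries. This list, too, was chosen with earlier results known. The 6 were Ephx1, a detoxifying hydrolase (0.35), Perp (0.34), the BH3-only death gene Pmaip1 (0.34), the antiproliferative Btg2 (0.30), the receptor Epha2 (0.27) and Trp53. Btg2 had 86.4, 94.6 and 64.6 FPKM in siRpl18, against 73.9, 73.0 and 52.2 FPKM in siRpl23 and 16.9, 18.03 and 9.45 FPKM in siNT. The third libraries gave 0.23 for Ephx1, 0.30 for Perp and Btg2, 0.27 for Epha2 and 0.10 for Pmaip1. Trim6, a ubiquitin ligase, was lower (-0.23). None of these 7 calls remained in all 4 fits that left out 1 library, in which the differences were 0.27 to 0.42 for Ephx1, 0.23 to 0.36 for Btg2 and 0.15 to 0.22 for Trp53. Trp53 was also not called after quantile normalization. Within the Bcl2 family and its partners (23 tested), Pmaip1 was higher and Diablo, which releases caspases from their inhibitors, was lower (-0.31; call lost without any 1 library).

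For 35 targets of the amino acid and stress factor ATF4 the median was 0.01 (0.00418 in the third libraries). Of them 2 were called higher and 0 lower, against 1.06% and 2.52% of all genes tested. They were Ddit3, the stress factor CHOP, with 50.9, 58.8 and 50.7 FPKM in siRpl18, against 40.9, 42.1 and 45.2 FPKM in siRpl23 and 28.6, 24.8 and 14.4 FPKM in siNT, and Ppp1r15a, the phosphatase subunit GADD34, with 37.9, 36.3 and 32.4 FPKM in siRpl18, against 29.2, 27.4 and 26.9 FPKM in siRpl23 and 16.6, 15.5 and 20.8 FPKM in siNT. Their differences were 0.39 ± 0.08 (adjusted p = 0.0311; 0.16 in the third libraries) and 0.38 ± 0.05 (adjusted p = 0.00767; 0.26 in the third libraries). Ddit3 lost the call without the second siRpl18 or either siRpl23 replicate (0.29 to 0.49), and Ppp1r15a without the first siRpl18 or the second siRpl23 replicate (0.34 to 0.43). Atf4 was not called (0.16 ± 0.04, adjusted p = 0.0608), but it was after quantile normalization and median-ratio scaling (limma adjusted p = 0.0149 and 0.0301). It was also called in the fit of 6 libraries and with the replicate block. Of 22 genes of the unfolded protein response 0 were called, and 5 had an unadjusted p under 0.05 (20.8% of all genes tested).

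The pluripotency network differed in single genes, beside 1.06% of all genes tested called higher and 2.52% lower. Pou5f1 (-0.01, adjusted p = 0.930), Nanog (0.03, adjusted p = 0.779) and Sox2 (0.15, adjusted p = 0.0680) were not called. Sox2 was called after median-ratio scaling (limma adjusted p = 0.0301) and with the replicate block (limma adjusted p = 0.0160). Nanog had 257, 261 and 189.8 FPKM in siRpl18, against 249, 259 and 180.3 FPKM in siRpl23 and 431, 446 and 293 FPKM in siNT. The median over 14 core genes was -0.01. Among them Tdgf1, the Nodal co-receptor Cripto, was called higher. Tdgf1 had 679, 744 and 655 FPKM in siRpl18, against 532, 586 and 543 FPKM in siRpl23 and 999, 1007 and 747 FPKM in siNT (0.35 ± 0.07, adjusted p = 0.0269; 0.27 in the third libraries). Called lower were Tfcp2l1, a naive-state factor (-0.31), and the RNA-binding protein Lin28a (-0.27).

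Of 20 naive-state genes, Klf4 was higher (0.34 ± 0.06, adjusted p = 0.0207; 0.38 in the third libraries) and Tfcp2l1 lower, with a median of 0.04. Klf4 had 61.8, 62.9 and 83.9 FPKM in siRpl18, against 49.4, 48.8 and 64.1 FPKM in siRpl23 and 80.3, 70.2 and 64.2 FPKM in siNT. Of 17 formative and primed genes 3 were higher (Otx2, Lef1 at 0.38 and Etv5 at 0.21) and 2 lower (Dnmt3b and Krt18), with a median of 0.00490. Among all genes tested, 1.06% were called higher and 2.52% lower. Tdgf1, Klf4, Tfcp2l1, Lef1, Etv5 and Lin28a lost the call without any 1 library. Tdgf1 and Klf4 were also the 2 calls among the 10 embryonic stem cell markers.

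Of 33 genes chosen for the state resembling the 2-cell embryo, 24 were tested and 2 called higher, Arg2 (0.47) and Tmem92 (0.40), with 0 lower. The shares of all genes tested were 1.06% higher and 2.52% lower. The list median was 0.11 in the first table and -0.07 in the third libraries. Arg2 had 8.63 and 9.71 FPKM in siRpl18 against 6.51 and 6.17 FPKM in siRpl23 in the first table, and 2.26 FPKM in siRpl18 against 3.17 FPKM in siRpl23 in the third libraries. Tmem92 was likewise turned in the third libraries (-0.20). Both were also not called in the fit of all 15 libraries (leave-one-out 0.39 to 0.55 for Arg2 and 0.31 to 0.48 for Tmem92). Zscan4d, whose near-identical copies make its value uncertain, had 51.8, 45.0 and 10.2 FPKM in siRpl18, against 55.7, 48.7 and 12.6 FPKM in siRpl23 and 21.9, 23.9 and 4.82 FPKM in siNT (-0.11, adjusted p = 0.512). Among 25 regulators of this state, Lin28a alone was called.

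Signalling and lineage lists each held a few calls, beside 1.06% of all genes tested called higher and 2.52% lower. At these shares 1 call in such a list is no result about its members. In the feedback genes of FGF and ERK signalling (20 tested), Spry2 (0.32), Etv5 (0.21) and Spry4 (0.17) were higher and 0 lower. Spry2 had 92.6, 99.2 and 69.7 FPKM in siRpl18, against 76.9, 75.8 and 58.2 FPKM in siRpl23 and 61.8, 59.5 and 58.0 FPKM in siNT. Of 14 Wnt targets, Lef1 and Ccnd1 (0.22) were higher and Cdx1 (-0.47) lower. Ccnd1, which encodes cyclin D1, was the only call among 17 cell cycle inhibitors and cyclins. Of 12 BMP and Id genes, Id2 was higher (0.25) and the phosphatase Dusp9 lower (-0.32). Of 14 genes of LIF signalling, Klf4 and Pim1 (0.21) were higher and Tfcp2l1 lower, and of 13 Nodal and Lefty genes Tdgf1 was the only call. Without the second siRpl23 replicate none of these calls remained; Dusp9, then at -0.30 (limma adjusted p = 0.0557), was called in the other 3 such fits.

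Of 19 targets of the growth regulators YAP and TEAD, Amotl2 (-0.27) and Fstl1 (-0.28) were lower. For this and the next lists, the shares of all genes tested were 1.06% called higher and 2.52% lower. Of 15 primitive endoderm genes, Foxa2 was higher (0.60) and Sparc (-0.21) lower. Foxa2 was at 1.35, 1.09 and 1.37 FPKM in siRpl18 and under 1 FPKM in siRpl23, so it passed the filter only through the group in which it was higher. Of 14 mesoderm genes 5 passed the filter, and of these Cdx1 and Hand1 were lower. Of 28 neural genes 14 passed it, and of these Nkx2-9 was higher and Tubb3 lower (-0.20; 0.10 in the third libraries). Of 19 germline genes 0 were called by limma, and 7 had an unadjusted p under 0.05 (20.8% of all genes tested). Without the first siRpl23 replicate none of these lineage and growth calls remained (Amotl2 ran from -0.32 to -0.22 over the 4 such fits), and Sparc, Fstl1 and Tubb3 were also not called after median-ratio scaling.

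Metabolic and other lists held few calls, beside 1.06% of all genes tested called higher and 2.52% lower. Lower calls were Sqle (-0.25) and Acat2 (-0.26) among 23 cholesterol synthesis genes, neither of which was called after median-ratio or quantile scaling, and Ppt1 (-0.35), Cd63 (-0.21) and Asah1 (-0.21) among 33 lysosomal genes. Of 21 imprinted genes Mirg (-0.51), Igf2 (-0.36) and Rian (-0.28) were lower. Igf2 had 7.20, 7.10 and 7.21 FPKM in siRpl18, against 9.62, 9.27 and 9.35 FPKM in siRpl23 and 1.63, 1.90 and 2.73 FPKM in siNT. Of 15 interferon-response genes Ifitm3 was higher (0.27; -0.04 in the third libraries) and B2m lower (-0.41). Of 20 early response and heat shock genes Ier2 was higher (0.31) and Nqo1 (-0.30) and Mt2 (-0.28) lower. In the DNA methylation list (16 tested) Gadd45a was higher and Dnmt3b lower. Among 30 G2-M genes Ube2c (0.24) and Hmmr (0.21) were higher, and the median was 0.07 (0.16 in the third libraries). Of the 30, 28 were above 0, against 4704 of all 11949 genes tested. With median-ratio scaling 5 of the 30 were called. Below 0 were 21 of the 23 cholesterol synthesis genes and 29 of the 33 lysosomal genes, against 7242 of all genes tested. Apart from Gadd45a and Dnmt3b, the calls of these metabolic and other lists were lost without the first siRpl23 replicate, with Ppt1 at -0.38 to -0.33 and Mirg at -0.56 to -0.46 over the 4 such fits.

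Lists of the translation machinery held 1 call, against 3.58% of all genes called and 20.8% with an unadjusted p under 0.05. At the first share, 0 or 1 call in a list of this size is no result about its members. Of the 49 other 60S proteins tested and 32 proteins of the small (40S) subunit, limma called 0 and gave 0 an unadjusted p under 0.05, with medians of -0.01 and 0.01. In the third libraries these medians were -0.11 and -0.12. Of 35 translation factors Eif3b was lower (-0.18 ± 0.03, adjusted p = 0.0261; -0.09 in the third libraries), a call lost without any 1 library and after median-ratio scaling. Of 52 ribosome biogenesis genes 0 were called, 8 had an unadjusted p under 0.05 and the median was -0.04. Likewise 0 were called of 20 cytosolic tRNA synthetases (2 with an unadjusted p under 0.05), 11 snoRNA host genes (3), 31 proteasome genes (3), 32 G1-S and replication genes (3), 33 glycolysis and hypoxia genes (3), 13 fatty acid synthesis genes (5), 12 genes of the Myc network (3) and 4 fibroblast markers (0). Myc was at -0.19 (adjusted p = 0.243). In all, the 14 lists with no call held 380 different genes, 50 of them with an unadjusted p under 0.05, beside the 20.8% of all genes. The 9 mitochondrially encoded genes chosen were not analysed here.

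**Figure D4:**
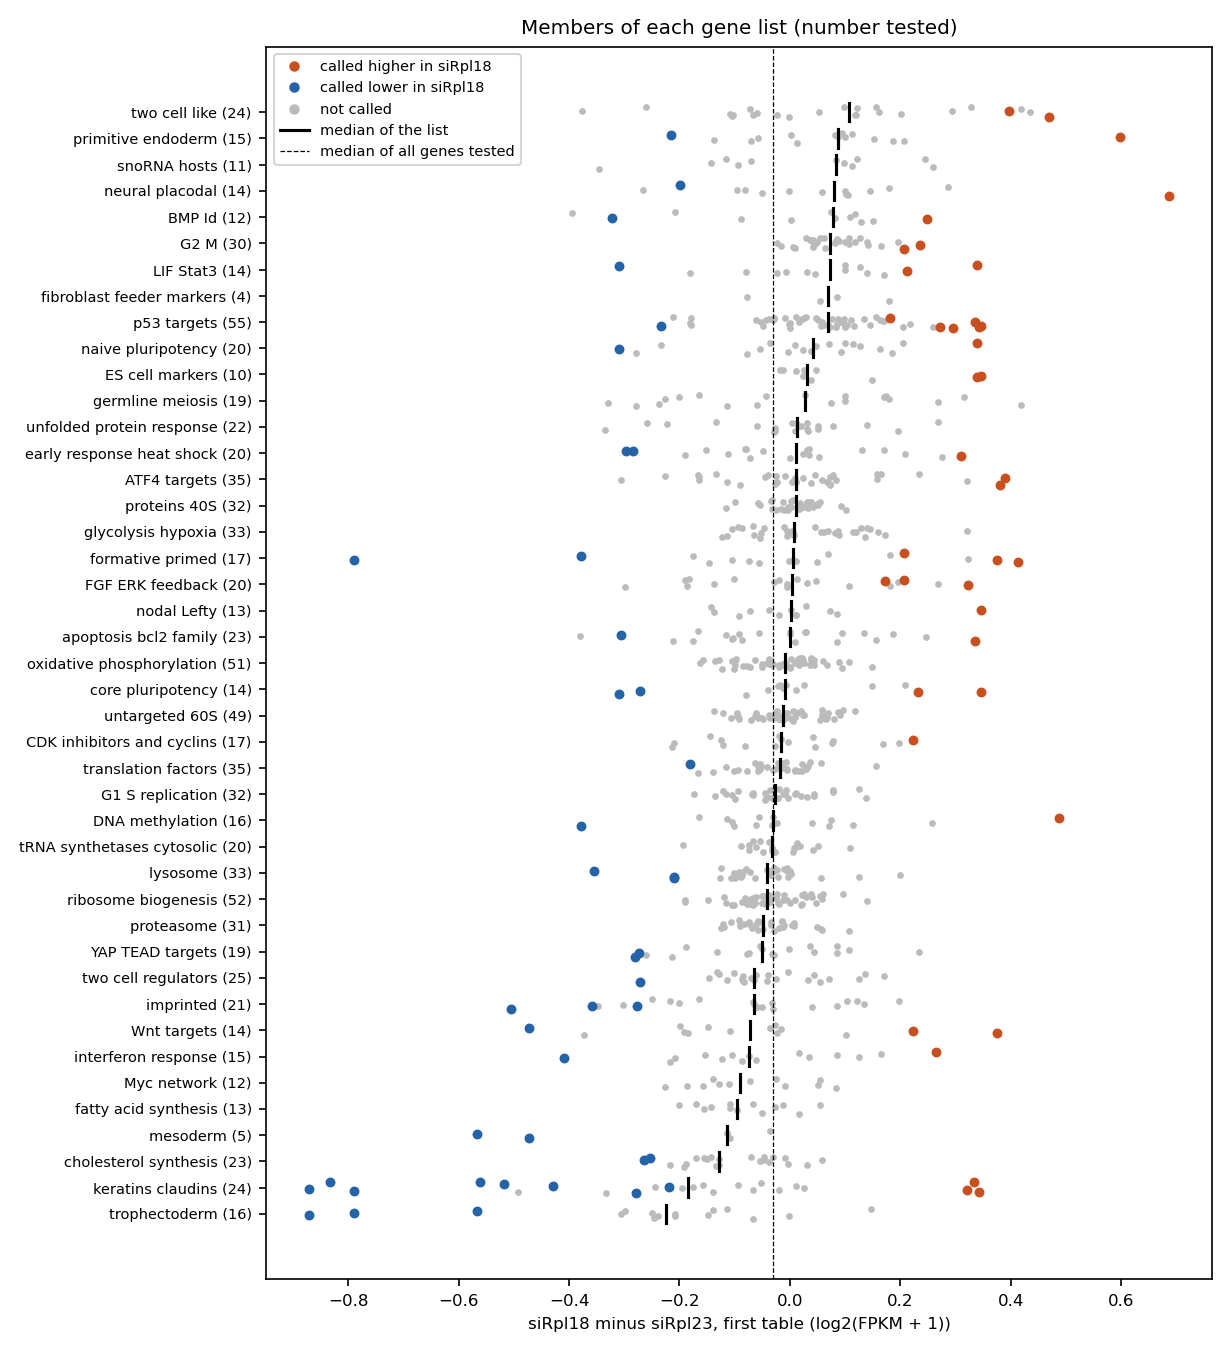
Difference siRpl18 minus siRpl23 in log2(FPKM + 1), first table, for each tested member of the gene lists, ordered by list median. Orange and blue points were called higher and lower in siRpl18, short bars are list medians and the dashed line is the median of all genes tested (-0.03); list medians run from -0.22 for trophectoderm genes to 0.11 for the 2-cell list, and members of several lists appear in each.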

How the data were processed

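Values are FPKM (fragments scaled to transcript length and library size), deposited by the authors; the submitters' processing notes name STAR, Cuffnorm and mm9. For their versions and the annotation: not given in the sources used here. Replicates 1 and 2 of all 5 groups were normalized in 1 table, and the third replicates in a separate table. Each table has 24819 genes, and 2 columns of the larger match no sample and were not used.

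A minimum of 1 FPKM, in 2 or more of the 6 siRpl18 and siRpl23 libraries, kept 11949 genes. limma 3.58.1 in R 4.3.3 was fitted to log2(FPKM + 1) of the 10 libraries of the first table with 1 term per group (5 residual degrees of freedom, eBayes with trend), and a Benjamini-Hochberg adjusted p under 0.05 over all genes made a call. The pseudocount of 1 understates differences of low genes. The fitting step was checked on simulated data. Outside the alternative fits of both tables, the third libraries gave signs and sizes only. Whether replicates were separate cultures is not in the labels; p-values therefore cover only differences among libraries, which may be technical.

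Genes and lists (44) were chosen with earlier results of these data known. Named genes were the 12 largest called differences in each direction with a mean of 5 FPKM or more and an ordinary symbol, the largest called members of each list, and a standing set of p53, pluripotency and stress genes. Alternatives covered the pseudocount, filter, scaling, libraries fitted, a replicate block and leaving out each library. Promoter sequences are RefSeq's, build GRCm38.p6. A member of the core pluripotency list is not reported here.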

Additional observations from a re-analysis of the deposited data

How the results depend on the processing

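In place of 428 calls, 267 were made with no filter on low values (181 lower in siRpl18), 65 with only the 4 libraries compared (26 higher, 39 lower), 651 with the 6 libraries of both tables (201 higher) and 4 of the 428 were at 2-fold or more. Calls shared with the 428 were 230 with no filter, 63 with the 4 libraries and 325 with the 6. Scaling moved the number higher, to 224 after quantile normalization and 247 after median-ratio scaling. No mesoderm gene was left at a mean of 5 FPKM or more. Apart from the replicate block, the other alternatives stayed within 1.5 times of the counts. Leaving out 1 library gave 53 to 91 calls (18 to 33 higher, 28 to 71 lower); 1 library then stands alone in its group and is assumed to vary like the other groups. The targets stayed called against siNT (-1.68 to -1.55 for Rpl18 and -1.499 to -1.42 for Rpl23).

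With the replicate block, 981 genes were called (313 higher, 668 lower), all 428 among them. Deviations of same-numbered siRpl18 and siRpl23 libraries correlated at 0.178, but with 2 pairs the numbers are not shown to pair the libraries.

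In the third libraries some named calls had the other sign, among them Lockd, Hist1h4h, Arg2, Tmem92, Tubb3 and Ifitm3. Across the alternative fits, signs of named genes turned only for genes not called. Pou5f1 was 0.026 after quantile normalization, 0.0237 after median-ratio scaling and -0.0664 to 0.0414 as single libraries were left out, and Nanog -0.00457 to 0.0569. With 2 libraries per group and unknown depth, the smallest called difference was 0.16.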
